A study of Homo sapiens with 12 samples.

Results

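The multidrug efflux transporters are membrane pumps of the ATP-binding cassette (ABC) superfamily that export drugs, drug conjugates and signalling molecules from the cell. The set holds 8 genes, picked by symbol from the 58735 genes of the deposited expression table: ABCB1, ABCC1, ABCC2, ABCC3, ABCC4, ABCC5, ABCC10 and ABCG2. RNA was sequenced from 12 cultures of human breast cells. MCF-10A cells are immortalised breast epithelium that does not form tumours, and SK-BR-3 cells come from a breast cancer that carries extra copies of ERBB2 (HER2). Each line received diallyl trisulfide (DATS), which garlic contains among its sulfur compounds, at 20 µM for 16 h, or dimethyl sulfoxide (DMSO) at 0.07% for 16 h, with 3 independently prepared samples of each line and treatment. The labels do not give the DMSO content of the cultures with DATS. Each line stands for 1 established cell line, so a difference between the lines cannot be told apart from any other way in which they differ. The libraries held 15295046 to 18407213 reads in genes.

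Efflux transporters use the energy of ATP to move substrates across the membrane. ABCB1 encodes P-glycoprotein, which expels many unmodified hydrophobic drugs, and ABCG2 encodes the breast cancer resistance protein, which works as a pair of identical subunits. The ABCC genes encode multidrug resistance-associated proteins, several of which export glutathione, glucuronide or sulfate conjugates made by the conjugating enzymes. ABCC1, ABCC2, ABCC3 and ABCG2 have been described as genes that answer the oxidative stress factor NRF2, and ABCG2 also as one that answers the aryl hydrocarbon receptor AHR.

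Start regions were read because NRF2 and AHR bind short motifs that can be looked for there. Those of ABCC2 and ABCC4 and some of ABCC10 and ABCG2 are printed, and those of ABCC5 and ABCB1 are not. RefSeq (GRCh38.p14) start regions, from 250 bases before to 50 bases after a gene start, were available for 6 of the 8 genes in 12 windows, and ABCC1 and ABCC3 were not among them. Capitals mark matches on either strand to the antioxidant response element core (TGACNNNGC, bound by NRF2 with small MAF proteins) or to the xenobiotic response element core (GCGTG, bound by AHR with ARNT), and 0 matches of these motifs overlapped each other.
ABCC2, chr10:99782390-99782689, + strand: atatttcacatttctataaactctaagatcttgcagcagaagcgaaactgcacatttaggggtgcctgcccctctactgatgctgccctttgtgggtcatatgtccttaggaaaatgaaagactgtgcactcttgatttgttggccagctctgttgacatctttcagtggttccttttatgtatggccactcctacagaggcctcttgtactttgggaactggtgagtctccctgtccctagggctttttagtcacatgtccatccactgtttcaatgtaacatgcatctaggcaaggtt
ABCC4, chr13:95301402-95301701, - strand: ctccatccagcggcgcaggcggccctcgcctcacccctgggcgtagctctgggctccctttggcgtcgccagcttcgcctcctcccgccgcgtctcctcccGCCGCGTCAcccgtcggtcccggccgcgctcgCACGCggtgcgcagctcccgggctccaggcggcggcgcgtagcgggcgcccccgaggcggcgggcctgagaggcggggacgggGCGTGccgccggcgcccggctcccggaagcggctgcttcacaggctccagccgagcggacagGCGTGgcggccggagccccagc
ABCC10, chr6:43427291-43427590, + strand: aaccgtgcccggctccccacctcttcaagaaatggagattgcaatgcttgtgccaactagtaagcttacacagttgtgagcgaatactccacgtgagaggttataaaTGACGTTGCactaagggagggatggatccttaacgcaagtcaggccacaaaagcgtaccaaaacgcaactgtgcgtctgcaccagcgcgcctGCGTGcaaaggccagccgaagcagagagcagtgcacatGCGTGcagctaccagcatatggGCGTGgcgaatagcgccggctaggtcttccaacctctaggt
ABCG2, chr4:88159241-88159540, - strand: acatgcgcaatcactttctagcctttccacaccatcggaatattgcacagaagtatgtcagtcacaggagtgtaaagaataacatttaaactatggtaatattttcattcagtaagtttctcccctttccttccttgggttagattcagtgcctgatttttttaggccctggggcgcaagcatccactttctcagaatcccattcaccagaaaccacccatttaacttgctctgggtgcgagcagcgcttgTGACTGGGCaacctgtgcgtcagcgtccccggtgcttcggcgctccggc
ABCG2, chr4:88158860-88159159, - strand: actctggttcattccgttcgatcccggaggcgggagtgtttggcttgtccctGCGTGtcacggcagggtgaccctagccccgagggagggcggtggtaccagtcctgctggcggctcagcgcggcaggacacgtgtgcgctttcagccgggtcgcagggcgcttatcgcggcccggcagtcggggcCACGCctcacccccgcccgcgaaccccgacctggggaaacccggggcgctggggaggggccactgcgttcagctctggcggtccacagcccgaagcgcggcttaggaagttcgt
The ABCC2 window held neither motif and was 45% G or C, against a median of 58.7% over all start regions. The ABCC4 window, at 79.7% G or C, held 1 match to the antioxidant core, which starts at position -149 on the minus strand of the window, and 3 to the xenobiotic core. One of the 2 ABCC10 windows held 1 and 3 matches of these motifs, and the other held neither. The ABCC5 window and 1 of the 2 ABCB1 windows each held 1 match to the xenobiotic core. Neither gene had a match to the antioxidant core. ABCG2 has 5 windows at alternative starts, of which 1 held the antioxidant core, at position 2, and 3 held the xenobiotic core. Some of these 5 windows overlap and share a match. The antioxidant core was found in 13.3% and the xenobiotic core in 36.5% of the 35116 start regions of this length, so a match is a common occurrence and is given only as a description.

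Levels are given in FPKM as deposited by the authors, a unit that divides reads by the length of a gene and a size of the library. The size these values imply was not the number of reads in genes. It was 1.98e+07 beside 18407213 reads in MCF-10A DMSO replicate 2, and 1.59e+07 beside 17950949 reads in SK-BR-3 DATS replicate 1. Its part in the FPKM levels was not tested. The fits with TMM rescaling and on whole reads do not use it. The length counts all exons of a gene merged over its transcripts, so the order of different genes depends on that choice. Without DATS, ABCC1 was the highest of the 8 transporters in both lines, at 18.7 ± 2.66 FPKM in MCF-10A and 19.3 ± 3.06 FPKM in SK-BR-3 (mean ± SD, n = 3). These levels lay above 90.9% and 90.4% of the genes with a read. In MCF-10A the next was ABCC3 at 11.1 ± 1.14 FPKM. ABCC5 (4.54 ± 0.215), ABCC2 (4.19 ± 1.05) and ABCC10 (4.09 ± 0.146) followed, and libraries of neighbours in this order overlapped. All ABCC4 libraries (3.65 ± 0.204 FPKM) lay below all ABCC10 libraries. In SK-BR-3 ABCC5 was second at 13.3 ± 0.877 FPKM. ABCC10 (2.91 ± 0.243), ABCC3 (1.96 ± 0.622), ABCC4 (1.20 ± 0.699) and ABCC2 (0.573 ± 0.259) followed, and each overlapped the next.

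ABCG2 was low in both lines, at 0.152 ± 0.0343 FPKM in MCF-10A and 0.146 ± 0.0494 FPKM in SK-BR-3 without DATS, or 12 to 17 and 8 to 16 reads per library. ABCB1 had 0 reads in all 6 MCF-10A libraries. In SK-BR-3 it had 0, 2 and 2 reads with DMSO and 0, 0 and 2 with DATS. A count of 0 allows up to 3 reads, which corresponds to 0.0262 to 0.0344 FPKM in these libraries, so P-glycoprotein RNA was not detectable in MCF-10A at this depth and near that limit in SK-BR-3. Such floors cover counting error only. In bulk RNA, fewer cells with a transcript and less of it per cell cannot be told apart. ABCB1 and ABCG2 did not reach the level of at least 1 FPKM in at least 3 libraries that was set for testing, which the other 6 transporters and 13194 genes in all reached.

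**Figure D1:**
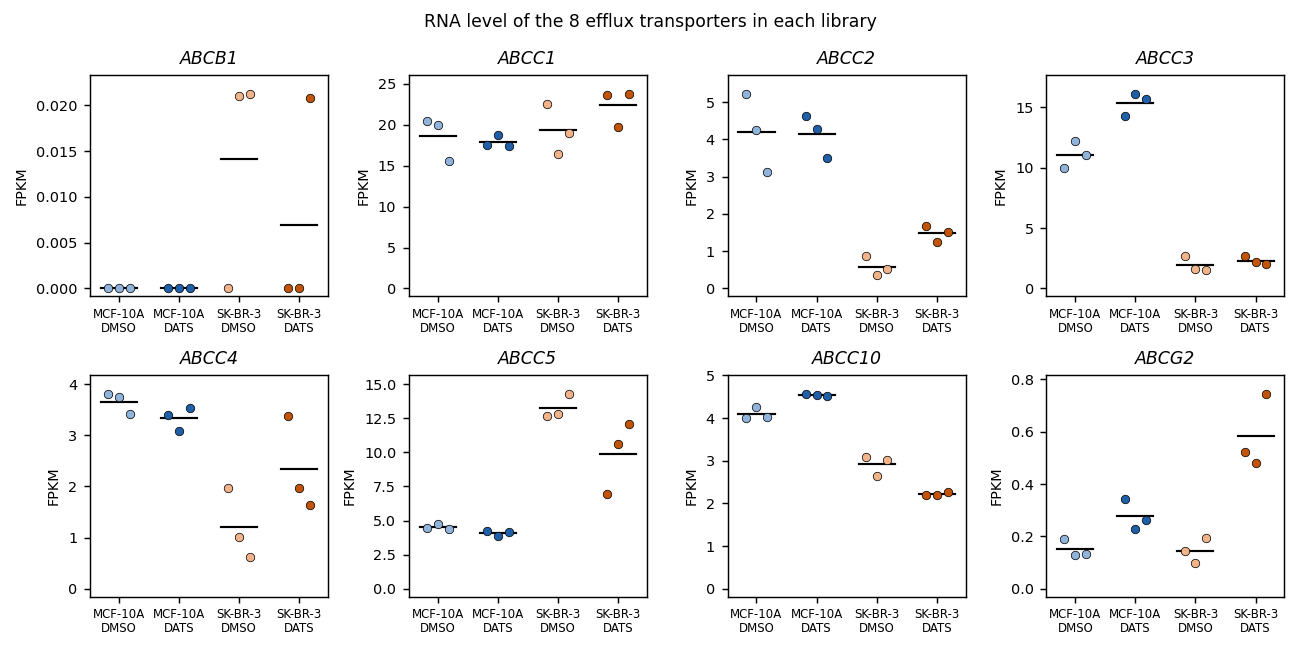
FPKM of each transporter in the 12 libraries (points, replicates 1, 2 and 3 from left to right within a group) with group means (bars), each panel on its own linear scale. ABCB1 is at 0 in all MCF-10A libraries, and ABCC2 and ABCC3 are lower in every SK-BR-3 library than in every MCF-10A library.

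The comparison of the lines in DMSO asks which pumps each line carries before treatment. SK-BR-3 had less ABCC2, ABCC3, ABCC4 and ABCC10 RNA than MCF-10A, more ABCC5 and a similar mean of ABCC1. Of the 6 transporters tested with limma on log2(FPKM + 1), 1 was higher and 4 were lower in SK-BR-3 at a Benjamini-Hochberg adjusted p under 0.05, where 72.1% of all genes tested were called (36.6% higher and 35.5% lower). A count of 5 in 6 is near the share of genes in general, and the libraries of the same 5 did not overlap between the lines, against 73.9% of all genes tested. The median log2 difference was -0.75 over the 6 transporters and 0.01 over all genes.

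ABCC3, which exports bile salts and glucuronides across the basolateral membrane, measured 9.94, 12.2 and 11.0 FPKM in MCF-10A and 2.68, 1.64 and 1.57 FPKM in SK-BR-3 (replicates 1, 2 and 3). All MCF-10A libraries lay above all SK-BR-3 libraries, by a ratio of the means of 5.64 (log2 difference -2.04 ± 0.14 SE, adjusted p = 6.42e-08 by limma). The gene lies at chromosome 17, 50634777 to 50692252 (GRCh38, plus strand), 10.9 Mb beyond the end of ERBB2 on the same chromosome.

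ABCC2, the apical pump for glutathione and glucuronide conjugates (chromosome 10, 99782640 to 99852594), measured 5.22, 4.24 and 3.11 FPKM in MCF-10A and 0.858, 0.350 and 0.512 FPKM in SK-BR-3. The groups did not overlap, and the mean was 7.31 times higher in MCF-10A (log2 difference -1.71 ± 0.16, adjusted p = 1.47e-06 by limma). The log2(FPKM + 1) scale understates changes at such low levels, and with edgeR on whole reads the log2 difference was -2.89. ABCC4, which exports cyclic nucleotides and prostaglandins (chromosome 13, 95019829 to 95301475), measured 3.80, 3.74 and 3.42 FPKM in MCF-10A and 1.97, 1.01 and 0.614 FPKM in SK-BR-3 (-1.13 ± 0.21, adjusted p = 0.000489 by limma). Its SK-BR-3 libraries differed from each other by more than 3-fold, yet all lay below those of MCF-10A.

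ABCC5, an exporter of cyclic nucleotides and nucleotide analogues (chromosome 3, 183919934 to 184018015), was the one transporter higher in SK-BR-3. It measured 4.43, 4.78 and 4.40 FPKM in MCF-10A and 12.7, 12.8 and 14.3 FPKM in SK-BR-3, groups far apart compared with the spread within each (ratio of the means 2.92, log2 difference 1.36 ± 0.14, adjusted p = 4e-06 by limma). ABCC10, which transports taxanes among other drugs (chromosome 6, 43427366 to 43450430), measured 3.99, 4.26 and 4.02 FPKM in MCF-10A and 3.09, 2.64 and 3.01 FPKM in SK-BR-3 (-0.38 ± 0.07, adjusted p = 0.000318 by limma). Its exons share 79 bases with DLK2 on the opposite strand, and the strand setting of the counting is not given in the sources used here, so these reads cannot be assigned with certainty. ABCC1, which exports glutathione conjugates and leukotriene C4 (chromosome 16, 15949577 to 16143074), had a log2 difference of 0.04 ± 0.13 (adjusted p = 0.768), with overlapping libraries. ABCG2 (chromosome 4, 88090264 to 88231322) had -0.09 with edgeR and its own filter (adjusted p = 0.836, where 71.4% of 16193 genes were called).

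Other genes of the efflux system are described for the same comparison, in which 36.6% of all genes tested were higher and 35.5% lower in SK-BR-3, and their counts are to be read against those shares. Of the 40 other human ABC genes, 20 were tested, of which 12 were higher and 5 lower in SK-BR-3, with a median log2 difference of 0.31. No test compared them with the efflux transporters. ABCA3, a lipid transporter, was 0.162 ± 0.0314 FPKM in MCF-10A and 5.68 ± 0.533 FPKM in SK-BR-3 (log2 difference 2.52 ± 0.14, adjusted p = 1.69e-08), and TAP1, the peptide pump of antigen presentation, 7.64 ± 1.10 and 36.1 ± 7.34 FPKM (2.09 ± 0.17, adjusted p = 4.07e-07). Among the solute carriers that move drugs, 6 of 12 tested were higher and 3 lower in SK-BR-3, led by the peptide carrier SLC15A1, which was at 0 in all MCF-10A libraries and 8.81 ± 1.49 FPKM in SK-BR-3. SLC22A18 was also higher (1.95 ± 0.11, adjusted p = 1.06e-08), and SLCO3A1, an organic anion carrier, was lower (-1.63 ± 0.07, adjusted p = 1.17e-09).

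**Figure D2:**
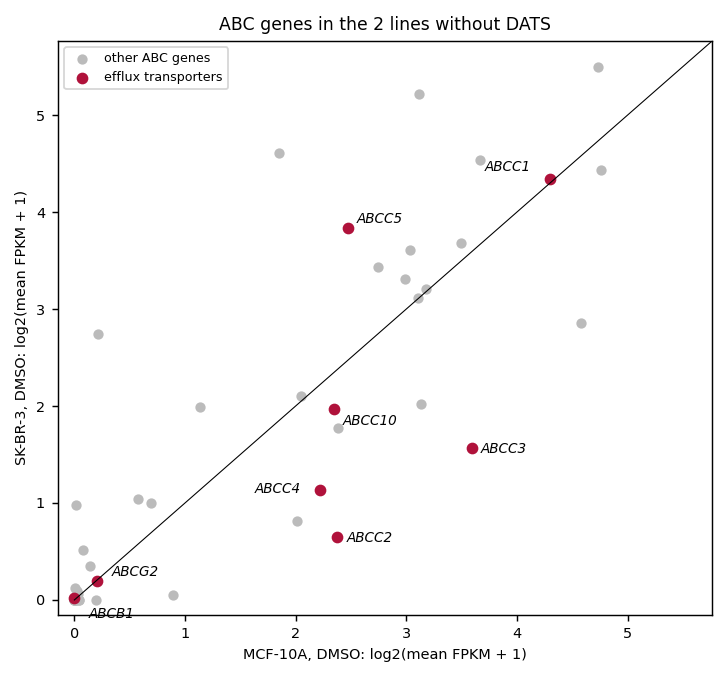
Mean level of the 8 efflux transporters (red) and the 40 other ABC genes (grey) without DATS, MCF-10A on the horizontal and SK-BR-3 on the vertical axis, both as log2(mean FPKM + 1), with the line of equal levels. ABCC2, ABCC3 and ABCC4 lie below that line, ABCC5 above it and ABCC1 on it.

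Of 16 conjugating enzymes tested, 7 were higher and 7 lower in SK-BR-3, beside 72.1% of all genes called in either direction, and the same share stands beside the next counts. The glutathione transferase GSTP1 was 770.3 ± 176 FPKM in MCF-10A and 15.0 ± 1.22 FPKM in SK-BR-3 (-5.57 ± 0.15, adjusted p = 2.59e-11), whereas GSTM3 was at 0 in all MCF-10A libraries and 23.3 ± 6.24 FPKM in SK-BR-3. GSTM4 was also higher in SK-BR-3 (2.51 ± 0.19, adjusted p = 2.08e-07), although reads of the GSTM genes may be shared between copies. Of 16 regulators and scaffolds tested, 3 were higher and 7 lower. Moesin (MSN), which ties membrane pumps to actin, was 78.6 ± 6.20 FPKM in MCF-10A and 0.167 ± 0.175 FPKM in SK-BR-3 (-6.10 ± 0.10, adjusted p = 5.76e-13). The PDZ scaffolds SLC9A3R2 (2.84 ± 0.13, adjusted p = 3.05e-09) and SLC9A3R1 (1.79 ± 0.19, adjusted p = 3.78e-06) were higher. Of 19 NRF2 targets tested, 7 were higher and 8 lower. The aldo-keto reductases AKR1C1 (-3.66 ± 0.13, adjusted p = 2.19e-10), AKR1C3 (-3.64 ± 0.11, adjusted p = 5.25e-11) and AKR1C2 (-3.53 ± 0.10, adjusted p = 2.5e-11) were lower, and their reads may be shared between near-identical copies. In this order their means were 13.0, 11.6 and 10.7 FPKM in MCF-10A and 0.0982, 0.00898 and 0.00945 FPKM in SK-BR-3. The log2(FPKM + 1) scale understates differences with levels this low on 1 side. These p-values are from limma.

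The marker genes followed the cell line labels. The summed level of 8 basal markers was 4346 to 5411 FPKM in MCF-10A and 51.5 to 67.2 FPKM in SK-BR-3 with DMSO, and that of 8 luminal and ERBB2 markers 120.5 to 138.9 and 4294 to 6290 FPKM. With DATS the basal sum was 92.6 to 127.9 FPKM in SK-BR-3, where 4 of the 8 markers rose and 0 fell. The luminal sum was 196.1 to 230.3 FPKM in MCF-10A, where 4 of the 8 rose and 0 fell. In turn, 1 basal marker fell in MCF-10A and 2 luminal markers fell in SK-BR-3. Of all genes tested, 11.3% were higher and 6.87% lower in SK-BR-3, and 4.17% and 2.11% in MCF-10A. The part of these shifts in the results was not tested. Of 17 markers of fibroblasts, endothelium and leukocytes, 4 reached the level set for testing. In MCF-10A the fibroblast marker COL1A1 was 6.03 ± 1.83 FPKM with DMSO and 6.27 ± 1.00 FPKM with DATS. DCN, another fibroblast marker, was 0.702 ± 0.379 and 1.06 ± 0.346 FPKM. The fibroblast markers COL1A2 and COL3A1 had means of at most 0.0265 and 0.00861 FPKM there. The leukocyte marker CD14 was 4.50 ± 0.430 and 5.83 ± 1.28 FPKM in MCF-10A. PTPRC, which defines leukocytes, had a mean of at most 0.00904 FPKM in any group. CDH5, an endothelial marker, was 11.8 ± 2.88 FPKM in SK-BR-3 with DMSO and 25.3 ± 4.42 FPKM with DATS, while the endothelial markers PECAM1, KDR, VWF and TIE1 stayed near 0 there. Ribosomal RNA took 0.243% to 0.257% of the reads in MCF-10A with DMSO and 0.261% to 0.386% with DATS, and 0.344% to 0.410% and 0.427% to 0.557% in SK-BR-3. It moved with treatment in both lines, and its part in the responses below was not tested.

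In SK-BR-3 cells DATS was followed by more ABCC2 and ABCG2 RNA and less ABCC10 RNA. ABCC4 RNA was higher and ABCC5 RNA lower within every replicate number, and neither passed in the limma fit without pairing. Both passed with the replicate number as a block and with DESeq2 on whole reads, and ABCC5 also with edgeR. Of the 6 transporters tested with limma, 1 was higher and 1 lower, where 18.1% of all genes were called (11.3% higher and 6.87% lower). The split moved with the scaling, to 8.12% higher and 8.86% lower with TMM rescaling, 8.98% and 7.82% with quantile normalization, and 8.68% and 8.42% by edgeR. The replicate block called 27.4% of all genes (17.1% higher and 10.3% lower). The median log2 change was 0.19 over the 6 transporters and 0.03 over all genes.

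ABCC2 measured 0.858, 0.350 and 0.512 FPKM with DMSO and 1.69, 1.24 and 1.53 FPKM with DATS in replicates 1, 2 and 3. Each library with DATS lay above each library with DMSO, and the ratio within replicates was 1.96, 3.54 and 2.98. The gene rose by 0.67 ± 0.16 on the log2(FPKM + 1) scale (adjusted p = 0.0167 by limma, and 0.00237 with the replicate block). On whole reads, 45 to 101 per DMSO library and 157 to 210 per DATS library, the log2 change was 1.31 (adjusted p = 0.007 by edgeR). The authors' deposited table lists ABCC2 with a log2 fold change of 1.34 and an adjusted p of 0.000216. Even with DATS its level in SK-BR-3 stayed below each MCF-10A library. The limma call was lost without DMSO replicate 2, DMSO replicate 3, DATS replicate 1 or DATS replicate 3 of SK-BR-3 (adjusted p = 0.0652, 0.056, 0.0537 and 0.0546).

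ABCG2 had 11, 8 and 16 reads with DMSO and 42, 39 and 62 reads with DATS, or 0.145, 0.0968 and 0.196 against 0.524, 0.478 and 0.743 FPKM. The lowest DATS library had 39 reads and the highest DMSO library 16, and the mean level was 3.99 times higher. Because the gene was below the level set for limma, it was tested with edgeR and that tool's own filter, a choice made after its values were seen, which kept 16193 genes and called 15.4% of them. It rose by 1.98 on the log2 scale (adjusted p = 0.00217), and it was called in each of 12 fits that left out 1 library (adjusted p 0.002 to 0.0151). The fits that left out an MCF-10A library kept all SK-BR-3 values of ABCG2. In the authors' deposited table its log2 fold change is 1.96, with an adjusted p of 0.000775. At 0.582 ± 0.141 FPKM it remained the second lowest of the 8 transporters.

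ABCC4 measured 1.97, 1.01 and 0.614 FPKM with DMSO and 3.39, 1.97 and 1.64 FPKM with DATS. The groups overlapped, since DMSO replicate 1 lay above DATS replicate 3, but the ratio within replicates was 1.72, 1.95 and 2.68. The log2 change was 0.61 ± 0.21 (adjusted p = 0.0683 by limma, 0.00245 with the replicate block and 0.0227 by DESeq2). Replicate 1 had the highest ABCC2, ABCC3 and ABCC4 levels of its treatment in SK-BR-3 with DMSO as well as with DATS, and the lowest ABCC5. Without DMSO replicate 1 the ABCC4 change was 0.85 (adjusted p = 0.0118), and without DATS replicate 1 it was 0.40 (adjusted p = 0.215).

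ABCC10 measured 3.09, 2.64 and 3.01 FPKM with DMSO and 2.20, 2.20 and 2.27 FPKM with DATS. The DATS libraries were nearly equal and all below the DMSO libraries, with ratios within replicates of 0.713, 0.834 and 0.751. The gene fell by 0.28 on the log2(FPKM + 1) scale (SE 0.07, adjusted p = 0.0174 by limma). The call was lost without DMSO replicate 3 of SK-BR-3 (adjusted p = 0.0663) and in limma on the 6 SK-BR-3 libraries alone (adjusted p = 0.0907). The authors' deposited table lists ABCC10 at -0.43, with an adjusted p of 0.0458. ABCC5 measured 12.7, 12.8 and 14.3 FPKM with DMSO and 6.96, 10.6 and 12.1 FPKM with DATS. The groups did not overlap, though DATS replicate 1 stood well below the other two (ratios 0.549, 0.826 and 0.845). Its log2 change was -0.42 ± 0.14 (adjusted p = 0.0657 by limma, 0.0315 with the replicate block, 0.0375 by edgeR and 0.03 by DESeq2). The authors' deposited table lists ABCC5 at -0.46, with an adjusted p of 0.0539, and ABCC4 is not among the 4065 genes it lists for SK-BR-3. Without DATS replicate 1 the change was -0.21 (adjusted p = 0.128).

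ABCC1 and ABCC3 did not pass in SK-BR-3. ABCC1 measured 22.5, 16.5 and 19.0 FPKM with DMSO and 23.7, 19.8 and 23.8 FPKM with DATS (0.21 ± 0.13, adjusted p = 0.282 by limma). ABCC3 measured 2.68, 1.64 and 1.57 FPKM with DMSO and 2.66, 2.19 and 2.01 FPKM with DATS (0.16 ± 0.14, adjusted p = 0.441 by limma). Libraries of both genes overlapped between treatments. The libraries of 3 of the 6 tested transporters did not overlap in this comparison, ABCC2, ABCC5 and ABCC10, against 33.5% of all genes tested.

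**Figure D3:**
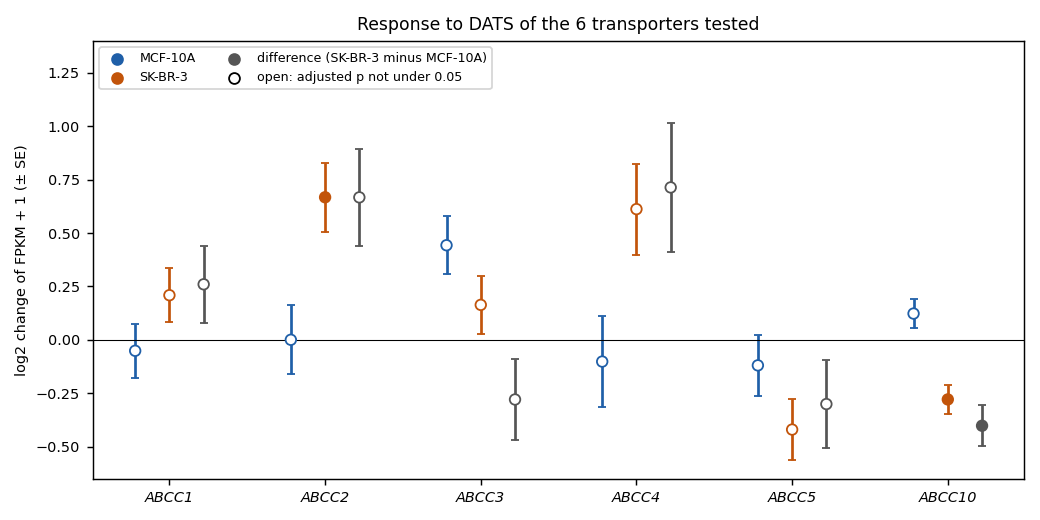
Log2 change of FPKM + 1 with DATS against DMSO (± SE from limma, 12 libraries) for the 6 transporters tested, in MCF-10A (blue), in SK-BR-3 (orange) and as the difference of the 2 responses (grey). Filled points passed at an adjusted p under 0.05: ABCC2 and ABCC10 in SK-BR-3, and ABCC10 for the difference.

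In MCF-10A cells 0 of the 6 transporters tested passed in limma without pairing, and ABCC3 passed with it. Of the 6 tested transporters, 0 were called by limma, where 6.28% of all genes were called (4.17% higher and 2.11% lower), and 1 had an unadjusted p under 0.05. On whole reads edgeR and DESeq2 called 0 of these 6 as well. Over all genes the number called in MCF-10A depended on single libraries, with 829 genes in all, 86 without DMSO replicate 1, 109 without DMSO replicate 2, 1945 without DMSO replicate 3, 233 without DATS replicate 1, 89 without DATS replicate 2 and 448 without DATS replicate 3. In limma on the 6 MCF-10A libraries alone 0 genes passed, with 3285 at an unadjusted p under 0.05, against 786 genes called by edgeR and 1456 by DESeq2 over the 12 libraries. The genes said to rise in MCF-10A therefore did not pass in that fit. The replicate block called 15.9% of all genes (10.7% higher and 5.21% lower), and quantile normalization 4.81% higher and 4.66% lower. The median log2 change was -0.03 over the 6 transporters and 0.02 over all genes. Libraries did not overlap between treatments for ABCC3, ABCC5 and ABCC10, 3 of 6, against 29.4% of all genes tested.

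ABCC3 measured 9.94, 12.2 and 11.0 FPKM with DMSO and 14.3, 16.1 and 15.7 FPKM with DATS. Each library with DATS lay above each library with DMSO, and the ratios within replicates were 1.44, 1.32 and 1.42. The log2 change was 0.44 ± 0.14 (adjusted p = 0.0734 by limma), and 0.44 ± 0.07 with the replicate block (adjusted p = 0.0123). The authors' deposited table lists ABCC3 at 0.44, with an adjusted p of 0.00316. ABCC3 came close to ABCC1, at 15.4 ± 0.957 against 17.9 ± 0.737 FPKM with DATS, although every ABCC1 library was still above every ABCC3 library. In reads, before the correction for length, ABCC3 was the higher, with a mean of 2485 against 2281. The merged exon lengths used were 9614 bases for ABCC3 and 7575 for ABCC1.

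None of the other transporters passed in MCF-10A. ABCC10 was 4.09 ± 0.146 FPKM with DMSO and 4.54 ± 0.0144 FPKM with DATS (0.12 ± 0.07, adjusted p = 0.303 by limma), and ABCC5 4.54 ± 0.215 and 4.10 ± 0.195 FPKM (-0.12 ± 0.14, adjusted p = 0.675). ABCC1 measured 20.4, 20.0 and 15.6 FPKM with DMSO and 17.6, 18.7 and 17.4 FPKM with DATS (-0.05 ± 0.13, adjusted p = 0.866). ABCC2 was 4.19 ± 1.05 and 4.14 ± 0.581 FPKM, and it was lowest in replicate 3 of both treatments. ABCC4 was 3.65 ± 0.204 and 3.34 ± 0.236 FPKM (-0.10 ± 0.21, adjusted p = 0.834). ABCG2 had 17, 13 and 12 reads with DMSO and 29, 20 and 22 reads with DATS, and its groups did not overlap. Its ratios within replicates were 1.80, 1.76 and 1.98, with a log2 change of 0.84 by edgeR with its own filter (adjusted p = 0.192, where 4.51% of 16193 genes were called, and 0.102 with the replicate block).

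**Figure D4:**
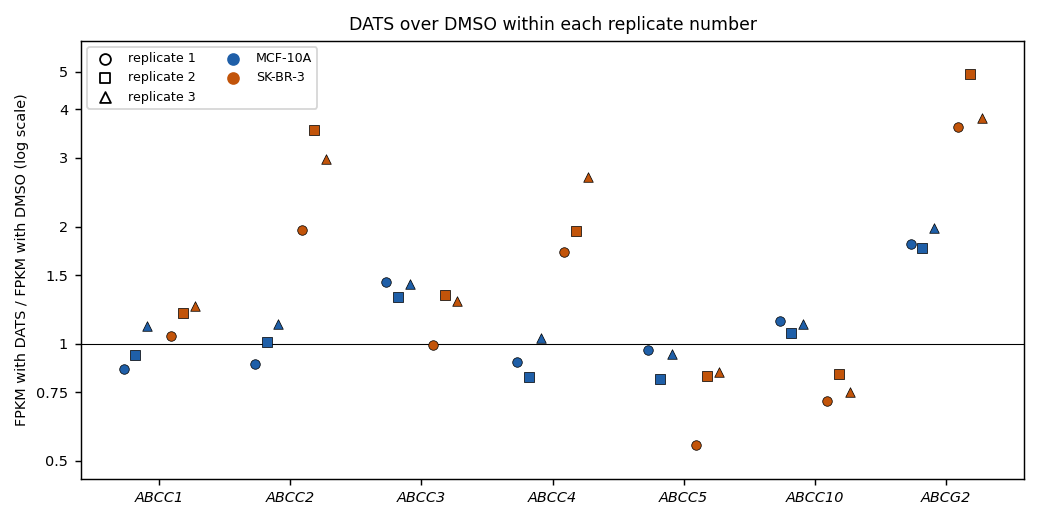
FPKM with DATS divided by FPKM with DMSO of the same replicate number (log scale) for 7 transporters, in MCF-10A (blue) and SK-BR-3 (orange), with a line at equal levels. ABCG2 lies above 1 in all 6 pairs, ABCC2 and ABCC4 lie at 1.72 or above in all SK-BR-3 pairs and between 0.823 and 1.12 in MCF-10A, and ABCC10 lies above 1 in MCF-10A and below 1 in SK-BR-3.

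The difference of the responses asks whether DATS acted on a pump differently in the 2 lines. ABCC10 was the one transporter called by limma, 1 of 6, where 4.29% of all genes were called (2.48% higher and 1.81% lower, or 1.81% and 2.24% with TMM rescaling). It was higher with DATS in all 3 MCF-10A pairs and lower in all 3 SK-BR-3 pairs, a log2 difference of -0.40 ± 0.10 (adjusted p = 0.0419), which was lost in 10 of 12 fits that left out 1 library (adjusted p up to 0.11). No transporter was called lower here without a filter on low values, without MCF-10A replicate 3 or with edgeR and its own filter. DESeq2 called 2 of 6, where 8.29% of all genes were called, and edgeR with its own filter 1 of 7. Each of these 2 fits called 1 transporter higher. ABCC2 had a difference of 0.67 ± 0.23 (adjusted p = 0.124) and ABCC4 of 0.71 ± 0.30 (adjusted p = 0.204), and both passed with the replicate block (adjusted p = 0.0195 and 0.0134), which called 9.82% of all genes. For ABCC3 the difference was -0.28 ± 0.19 (adjusted p = 0.434), for ABCC5 -0.30 ± 0.20 (adjusted p = 0.429) and for ABCC1 0.26 ± 0.18 (adjusted p = 0.436), all by limma. ABCG2 had a difference of 1.14 by edgeR with its own filter (adjusted p = 0.241, where 3.47% of genes were called), so its larger change in SK-BR-3 was not shown to differ from that in MCF-10A. ABCB1 had too few reads for any change to be given.

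The summed level of the 8 transporters was 46.4 ± 4.05 FPKM in MCF-10A with DMSO and 49.7 ± 1.04 FPKM with DATS, and 39.4 ± 4.47 and 41.2 ± 2.81 FPKM in SK-BR-3. Libraries with DMSO and DATS overlapped in both lines. ABCC3 made up 24.0% ± 2.94 of the sum in MCF-10A with DMSO and 30.9% ± 1.60 with DATS. In SK-BR-3 ABCC5 made up 33.9% ± 4.43 with DMSO and 24.0% ± 6.07 with DATS, and ABCG2 0.369% ± 0.117 and 1.40% ± 0.247. ABCC1 held the largest share in every library.

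**Figure D5:**
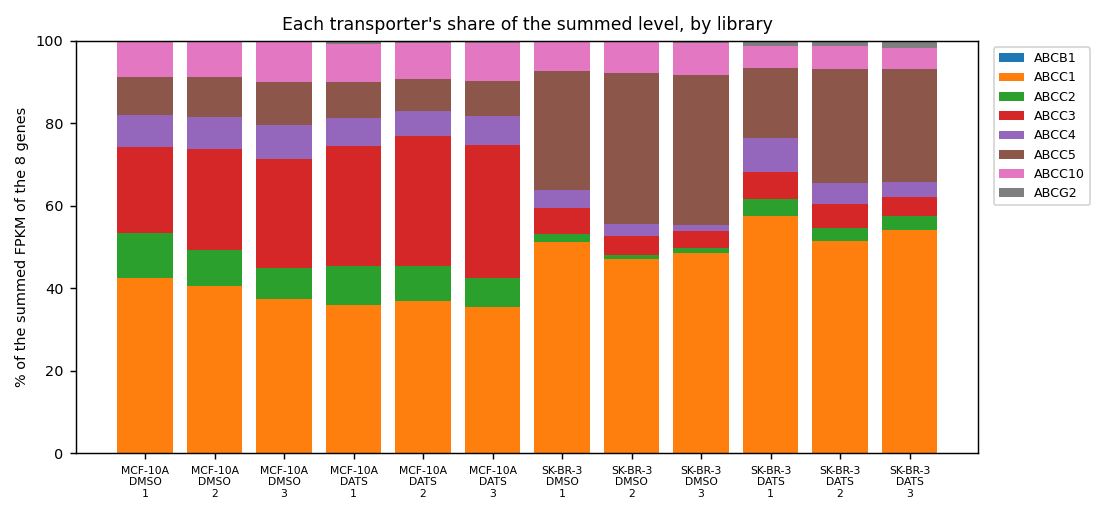
Share of each transporter in the summed FPKM of the 8 genes, 1 stacked bar for each of the 12 libraries. ABCC1 is the largest part in every library, ABCC3 the second in MCF-10A and ABCC5 the second in SK-BR-3.

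With DATS, 2 of 20 other ABC genes tested were higher in MCF-10A and 0 lower, where 4.17% of all genes were higher and 2.11% lower. Of these, TAP1 rose from 7.64 ± 1.10 to 12.5 ± 0.543 FPKM (0.65 ± 0.17, adjusted p = 0.0472). In SK-BR-3, 3 were higher and 3 lower, where 11.3% of all genes were higher and 6.87% lower. ABCA12, the lipid carrier of the skin barrier, rose (0.53 ± 0.10, adjusted p = 0.00494), while ABCA2 fell (-0.66 ± 0.15, adjusted p = 0.0142) and ABCA7 fell (-0.49 ± 0.16, adjusted p = 0.0482). With the replicate block 5 were higher and 3 lower in SK-BR-3, where the block called 17.1% of all genes higher and 10.3% lower. No ABC gene of this list was called for the difference of the responses by limma, with 1 called with the block.

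The same shares of all genes apply to the other lists. Among the solute carriers of drugs, 2 of 12 were higher in MCF-10A, the nucleoside importer SLC28A3 (0.84 ± 0.15, adjusted p = 0.0133) and SLC22A18 (0.49 ± 0.11, adjusted p = 0.0245). In SK-BR-3, 2 were lower, SLC22A18 (-0.48 ± 0.11, adjusted p = 0.0121) and the nucleoside carrier SLC29A1 (-0.39 ± 0.12, adjusted p = 0.0444). Of 16 regulators and scaffolds, MVP, the major vault protein, rose in MCF-10A (0.61 ± 0.15, adjusted p = 0.0368), with 3 higher with the replicate block. In SK-BR-3, 3 were higher and 1 lower, with 6 and 2 with the block. NFE2L2, which encodes NRF2, rose from 8.66 ± 0.333 to 14.0 ± 0.732 FPKM there (0.64 ± 0.09, adjusted p = 0.00116), RDX, a membrane and actin linker, rose from 14.9 ± 1.21 to 20.6 ± 2.06 FPKM (0.44 ± 0.08, adjusted p = 0.00643), AHR rose from 2.85 ± 0.0415 to 4.09 ± 0.221 FPKM (0.40 ± 0.08, adjusted p = 0.00902), and SLC9A3R2 fell (-0.43 ± 0.13, adjusted p = 0.0459). These p-values are from limma.

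Of 16 conjugating enzymes, 0 were called in MCF-10A by limma, with 3 higher with the replicate block. In SK-BR-3, 2 were higher and 2 lower, with 4 and 3 with the block. GCLM, the modifier subunit of the enzyme that starts glutathione synthesis, rose from 12.1 ± 0.800 to 28.6 ± 2.31 FPKM (1.18 ± 0.09, adjusted p = 6.76e-05), MGST1, a membrane-bound glutathione transferase, rose (0.77 ± 0.10, adjusted p = 0.00104), and GSTK1 fell (-0.39 ± 0.12, adjusted p = 0.0434). Of 19 NRF2 targets, 9 were higher in MCF-10A and 12 in SK-BR-3, and 0 were lower in either line, beside 4.17% of all genes higher in MCF-10A and 11.3% in SK-BR-3. The thioredoxin reductase TXNRD1 rose from 119.1 ± 20.2 to 296.8 ± 27.8 FPKM in SK-BR-3 (1.32 ± 0.11, adjusted p = 0.000147). The iron storage gene FTH1 was 166.3 ± 18.7 FPKM with DMSO and 477.0 ± 101 FPKM with DATS there (adjusted p = 0.000279). HMOX1, which degrades heme, rose by 1.48 ± 0.25 on the log2(FPKM + 1) scale (adjusted p = 0.00334). In MCF-10A, FTL (1.19 ± 0.17, adjusted p = 0.0057), HMOX1 (1.05 ± 0.25, adjusted p = 0.034) and FTH1 (0.67 ± 0.15, adjusted p = 0.0288) rose, with ferritin reads that pseudogenes could share. These p-values are from limma.

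Nearness of pattern was measured for the 4 transporters whose group means span at least 1 log2 unit. It is the root mean square difference between profiles of log2(FPKM + 1) over the 12 libraries, each centred on its own mean, and was computed against 11270 other protein-coding genes. The nearest to ABCC2 were NOTCH1 (0.14), ZBTB38 (0.17) and CCNYL1 (0.17). The nearest to ABCC3 were LACC1 (0.12), ZC3H12C (0.13) and ANTXR2 (0.14). For ABCC4 they were RIN2 (0.15), MFHAS1 (0.17) and ALDH1B1 (0.17), and for ABCC5 they were ACSS3 (0.13), FREM2 (0.13) and PDZRN3 (0.14). This scale compresses low values, so near profiles can differ much in ratio. With DMSO, ACSS3 was 0.00132 FPKM in MCF-10A and 1.57 in SK-BR-3, FREM2 0.175 and 2.28, and PDZRN3 0.0117 and 1.75. ABCC5 was 4.54 and 13.3 FPKM. Likewise ANTXR2 was 2.88 and 0.0498 FPKM, beside 11.1 and 1.96 for ABCC3. All points share the same libraries, which the 2 lines and both treatments contribute.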

How the data were processed

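RNA from 12 cultures was sequenced. The submitters' processing notes name STAR 2.6.1d, DESeq2 and the human build GRCh38 (hg38). Not given in the sources used here are the read counter, whether it used strand, and the gene annotation. The FPKM table deposited by the authors holds 58735 genes, and all gene identifiers matched GENCODE 29. In further tables deposited by the authors for the genes of each line at an unadjusted p under 0.05, there are whole read counts, a normalized signal (the count divided by a size factor), log2 fold changes and p-values, per the file headers. The lengths of all 7542 entries there equalled the merged exon lengths of GENCODE 29, which gave whole reads for 704820 of 704820 FPKM values (100%, tolerance 1e-06 read).

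A gene was tested if 3 or more libraries reached 1 FPKM (13194 genes), as log2(FPKM + 1) with limma 3.58.1 in R 4.3.3, 1 mean per group over the 12 libraries, trended variances, and Benjamini-Hochberg adjustment over all of them. "Rose" and "fell" are used at an adjusted p under 0.05. With 3 libraries a group, p-values measure the spread between preparations, pooled over both lines. The count tests edgeR 4.0.16 (quasi-likelihood) and DESeq2 1.42.0 were run on recovered reads. The limma and edgeR fits of DATS against DMSO in SK-BR-3 were tested on simulated data, and the outcome is not reported here. The simulation used the same spread for all genes and no pairing, and only genes with ample reads were given a change. It therefore does not bear on ABCG2 or on the fits with the replicate block. Libraries of the same replicate number deviated together from their group means (correlations 0.21, 0.186 and 0.333 in MCF-10A, 0.394, 0.245 and 0.25 in SK-BR-3). Libraries of different numbers had correlations from -0.24 to 0.114 in MCF-10A and from -0.303 to 0.087 in SK-BR-3. Deviations from a group mean cancel out within the group, which makes correlations of unlike numbers negative where those of like numbers are positive. The negative values are therefore no separate evidence of pairing. In MCF-10A replicates 1 and 2 were little separated, with 0.21 and 0.186 for like numbers and 0.0835 and 0.114 for unlike ones. The numbers were therefore taken to pair DATS and DMSO within a line, although the labels do not say that they mark a shared day. This pairing was read from the same expression values that the replicate block then tests.

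The transporters, gene lists and tests were chosen with earlier results of these data known. All 8 transporters are described, ABCB1 by its reads only, with up to 3 called genes of the largest absolute change from each of 5 lists and the 3 genes nearest in pattern. One gene that this rule names is not reported here. AHR in SK-BR-3 was added after its values were seen. ABCC2 in MCF-10A is given by level, and its change was 0 within 2 decimals.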

Additional observations from a re-analysis of the deposited data

Results flagged for a closer look

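The test of the difference between the 2 lines called 4.29% of all genes (limma, SK-BR-3 minus MCF-10A, log2(FPKM + 1) scale, adjusted p under 0.05). The naming rule takes only called genes, up to 3 from each of the 5 lists of the efflux system. The number it names is therefore no result about the lists. Of 19 NRF2 targets 4 were called, of which it names 3. With the transporters, 10 genes that passed are named here. Among the transporters this was ABCC10, at -0.40, higher with DATS in 3 of 3 MCF-10A pairs and lower in 3 of 3 SK-BR-3 pairs. SLC22A18, at -0.97, was called higher in MCF-10A and lower in SK-BR-3. RDX differed by 0.59, AHR by 0.51 and NFE2L2 by 0.48. GCLM differed by 1.02, MGST1 by 0.63 and GSTK1 by -0.67. AKR1B10, an aldo-keto reductase, differed by 1.06 and TXNRD1 by 0.79. For GSTK1 (adjusted p = 0.0499), NFE2L2 (0.0493) and AKR1B10 (0.0481) the adjusted p lay just under the threshold. Among the markers of cell types KRT17 (1.35), KRT5 (0.94), CDH5 (1.00), FOXA1 (-0.98) and ERBB2 (-0.39) passed as well.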

How the results depend on the processing

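The 5 calls between the lines in DMSO held in each alternative run, and ABCC1 reversed there without being called, with quantile normalization (-0.093) and without MCF-10A replicate 3 of both treatments (-0.073). The counts that follow are out of 6 transporters, out of 7 with edgeR and its own filter, and out of 8 without a filter. ABCG2 is outside the 6, and it is 1 of the higher calls in SK-BR-3 with edgeR and its own filter without the block. In MCF-10A, DATS called 1 transporter higher with the replicate block (in limma and in edgeR with its own filter) and 0 in the fit without it, and leaving out 1 library gave 0 to 1. In SK-BR-3, 1 was called higher, but 2 without a filter on low values, with the replicate block, with DESeq2 and with edgeR with its own filter, 3 with that filter and the block, and 0 to 2 without 1 library. One was called lower there, but 2 with TMM rescaling, with the replicate block, with edgeR, with DESeq2 and with edgeR with its own filter and the block, 0 with the 6 SK-BR-3 libraries alone, and 0 to 2 without 1 library. For the difference of the responses 0 were called higher, but 2 with the replicate block (in limma and in edgeR with its own filter), 1 with DESeq2 and, without the block, with edgeR with its own filter, and 0 to 1 without 1 library. One was called lower there, but 0 without a filter, without MCF-10A replicate 3 and with edgeR with its own filter, and 0 to 1 without 1 library. The block changed no other call of a transporter. The block also raised the share of all genes called, to 15.9% in MCF-10A, 27.4% in SK-BR-3 and 9.82% for the difference, from 6.28%, 18.1% and 4.29%. In SK-BR-3 the share was 5.67% without a filter, 17% with TMM rescaling, 17.1% with edgeR and 22% with DESeq2. With the filter of edgeR it was 15.4%, and 6.95% with the 6 SK-BR-3 libraries alone. For the difference it was 0.767% without a filter, 8.29% with DESeq2 and 3.47% with the filter of edgeR. The comparison of the lines was not fitted with a block, since the numbers were taken to pair libraries within a line only. The change of ABCC2 in MCF-10A, 0 within 2 decimals, turned to -0.017 with quantile normalization, -0.022 with edgeR, -0.0039 with TMM rescaling, -0.064 without replicate 3, -0.026 with DESeq2, and -0.055 and -0.038 with the filter of edgeR without and with the block, and ranged from -0.16 to 0.14 without 1 library. ABCC1 ranged from -0.17 to 0.014 in MCF-10A and from -0.073 to 0.15 between the lines, and ABCG2 from -0.37 to 0.14 between the lines (0.13 without SK-BR-3 DMSO replicate 2). The filter of edgeR and its fits were added after the values were seen. The cause of these shifts was not tested. Depth limits ABCB1 and ABCG2, with at most 2 and 62 reads per library.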
